A study of Mus musculus with 6 samples.

Results

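Heat shock proteins and DNAJ co-chaperones are the folding machinery of the cell, and their transcript levels are described here in sorted dendritic cells of mice. Members were the protein-coding genes of the deposited table whose symbol names a heat shock protein (Hspa, Hspb, Hspd, Hspe, Hsph, Hsp90) or a numbered DNAJ protein of class A, B or C. The rule gave 72 genes of 21914 symbols, including the HSP70-binding protein Hspbp1 and the HSPB1-associated protein Hspbap1, which share the name only. Of the 72, 58 reached 1 FPKM, a level per length of the gene and per size of the library, in at least 2 of the 6 libraries, as did 10818 genes in all, and log2 ratios are given for those 58.

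The mice were germ-free C57BL/6 Rag KO animals, which lack T and B lymphocytes of their own, and dendritic cells were sorted by flow cytometry from peripheral lymph node and from spleen. Mice were left un-injected, or were given FACS-purified naive CD4 T cells or FACS-purified regulatory T cells (Treg) 1 week earlier, so that 3 states crossed with 2 tissues gave 6 libraries, 1 for each group. All 6 groups share the Rag deletion and the germ-free state. The sources used here give neither the Rag gene that was deleted, nor the sorting gate, nor the age, sex and number of mice behind each library. Within a tissue no difference has a replicate check, and in sorted bulk cells fewer cells of a type and less RNA per cell cannot be told apart. Unless stated otherwise, values follow the order un-injected, naive, Treg, with lymph node before spleen.

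HSP70 proteins bind unfolded stretches of polypeptide and release them in a cycle driven by ATP, DNAJ proteins deliver the client and start ATP hydrolysis, and HSP90 proteins act later on folded clients such as kinases and receptors. Each compartment has its own set: cytosolic forms that are present at all times or induced by heat shock factor 1, forms in the endoplasmic reticulum that the unfolded protein response induces, and mitochondrial forms that fold imported proteins. Dendritic cells are secretory and antigen-presenting cells, and the reticulum forms assist the folding of Toll-like receptors, integrins and other surface proteins there.

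The promoters shown first are those of 3 reticulum genes and 2 heat-inducible genes that hold the element searched for. These groups are described in most depth below. The sequences are the 250 bases before the RefSeq start in build GRCm38.p6, read in the direction of the gene. Of the 72 members, 59 had an entry. Capitals mark the ER stress response element (CCAAT and CCACG with 9 bases between them) in the first 3 promoters and the pair of heat shock units GAANNTTC in the last 2, each searched on both strands. The promoters lie at chr2:34771840-34772089 on the plus strand, chr10:86705445-86705694 on the minus strand, chr14:118937682-118937931 on the plus strand, chr17:34972157-34972406 on the minus strand and chr17:34959239-34959488 on the minus strand.
Hspa5: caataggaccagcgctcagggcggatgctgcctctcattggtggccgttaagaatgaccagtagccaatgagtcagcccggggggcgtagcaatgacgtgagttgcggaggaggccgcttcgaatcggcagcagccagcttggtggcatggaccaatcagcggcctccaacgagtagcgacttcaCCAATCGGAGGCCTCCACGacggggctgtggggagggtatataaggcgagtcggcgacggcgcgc
Hsp90b1: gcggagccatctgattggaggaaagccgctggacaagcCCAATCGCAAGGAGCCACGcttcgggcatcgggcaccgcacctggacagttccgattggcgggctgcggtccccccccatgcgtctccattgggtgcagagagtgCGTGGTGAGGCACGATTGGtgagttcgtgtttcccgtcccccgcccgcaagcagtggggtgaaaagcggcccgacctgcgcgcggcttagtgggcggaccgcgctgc
Dnajc3: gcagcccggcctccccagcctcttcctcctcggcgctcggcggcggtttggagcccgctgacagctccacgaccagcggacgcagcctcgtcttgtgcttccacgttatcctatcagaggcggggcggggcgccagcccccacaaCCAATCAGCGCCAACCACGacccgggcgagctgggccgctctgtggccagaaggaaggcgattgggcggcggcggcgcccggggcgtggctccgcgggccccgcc
Hspa1a: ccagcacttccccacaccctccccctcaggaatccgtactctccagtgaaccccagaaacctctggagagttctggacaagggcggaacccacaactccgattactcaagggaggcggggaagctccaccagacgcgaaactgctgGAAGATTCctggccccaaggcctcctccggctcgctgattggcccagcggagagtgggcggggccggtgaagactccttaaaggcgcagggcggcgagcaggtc
Hspa1b: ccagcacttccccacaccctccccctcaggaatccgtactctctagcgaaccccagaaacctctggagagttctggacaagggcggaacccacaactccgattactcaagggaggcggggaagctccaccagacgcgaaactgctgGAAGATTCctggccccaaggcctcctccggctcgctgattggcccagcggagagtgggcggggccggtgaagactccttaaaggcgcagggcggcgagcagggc
The ER stress response element was found in 3 of the 59 members with an entry, Hspa5, Hsp90b1 and Dnajc3. Counted by promoter, it was in 3 of the members' 76 and in 0.113% of 32851 of the same length. It began at base -65 of Hspa5 and at base -105 of Dnajc3, and the Hsp90b1 window holds it once on each strand. GAANNTTC was found in 11 of the 59 members. They were Dnaja1, Dnaja4, Dnajb6, Dnajc27, Hspa1a, Hspa1b, Hspb1, Hspb3, Hspb6, Hspd1 and Hspe1. The reticulum genes without the first element and the inducible genes not named here had no match or no entry. Counted by promoter, it was in 12 of the members' 76 and in 6.69% of all promoters. In Hspa1a and Hspa1b it began at the same base, -104. A match describes the letters of the window and is not a binding site.

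Chaperone transcripts were abundant in all 6 libraries. The 72 members summed to 4356, 5259 and 3553 FPKM in lymph node and to 4992, 4808 and 3874 FPKM in spleen, which was between 0.580% and 0.845% of the summed values of a library. Hspa8, the constitutive cytosolic HSP70 (HSC70), and Hsp90ab1, the constitutive HSP90, made up 39.5% to 55.4% of the members' sum. The 58 members that passed the filter were compared by the ratio of their highest to their lowest library on FPKM + 0.5, whose median was 2.11, beside 2.56 over all 10818 genes. The highest library was less than 2 times the lowest for 27 of the 58 members (46.6%), and for 31.7% of all genes.

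**Figure D1:**
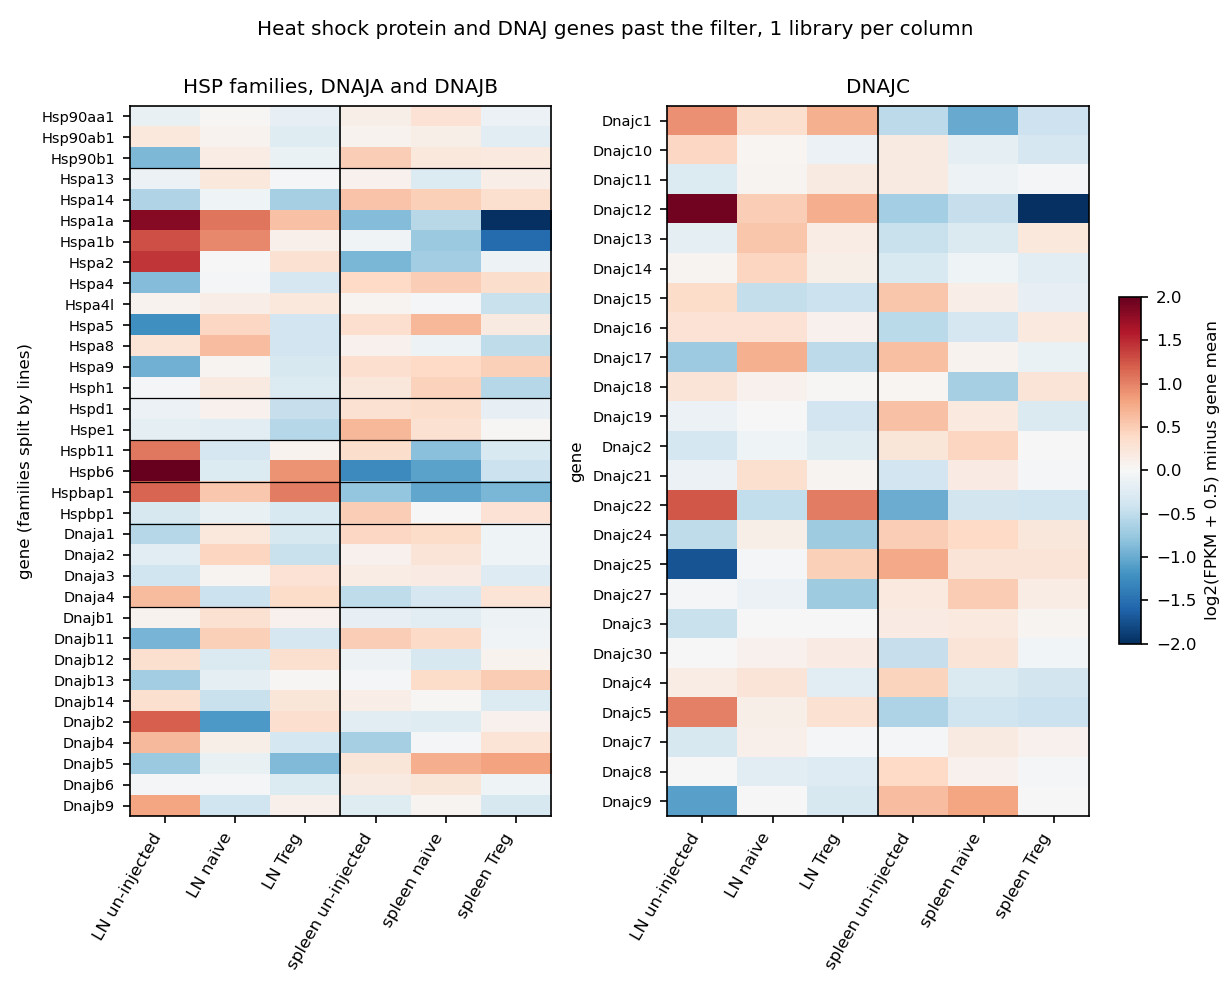
Levels of the 58 members past the filter, as log2(FPKM + 0.5) minus the mean of the gene over the 6 libraries (color scale), with genes in rows and 1 library per column, and a vertical line between lymph node and spleen. Colors reach the ends of the scale for few genes, among them Hspa1a, Dnajc12 and Hspb6, while Hsp90ab1 and Hsp90aa1 stay pale.

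Among the constitutive cytosolic members, Hspa8 stood at 1641, 2082 and 1040.3 FPKM in lymph node and at 1436, 1264.5 and 953 FPKM in spleen. It was the highest member in every library, and the Treg library was the lowest of its tissue in both tissues. Hspa8 was 2.001-fold higher in the naive than in the Treg library of lymph node and 1.33-fold higher in spleen, and scaled by library totals the lymph node log2 ratio was 0.83, short of 2-fold. Hsp90ab1 stood at 771, 705 and 566 FPKM in lymph node and at 700.2, 723 and 576 FPKM in spleen, with the Treg library again lowest in each tissue. Scaled by library totals, its lowest spleen library was the un-injected one.

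Hspa4, an HSP110-type exchange factor that recharges HSP70 with ATP, stood at 25.1, 44.9 and 36.3 FPKM in lymph node and at 60.7, 64.6 and 59.1 FPKM in spleen. All 3 spleen values were above all 3 lymph node values. Dnaja1, a cytosolic DNAJ partner of HSC70, stood at 43.0, 74.6 and 51.4 FPKM in lymph node and at 86.1, 82.8 and 60.6 FPKM in spleen. Its un-injected lymph node library was the lowest of the 6, and the tissues overlapped.

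The stress-inducible cytosolic members did not share a pattern. Hspa1a and Hspa1b, the inducible HSP70 genes on chromosome 17 (GRCm38, 34969190 to 34972156 and 34956436 to 34959238), are 99.43% identical over their coding bases, so reads may be split between them. Hspa1a stood at 11.5, 6.63 and 4.61 FPKM in lymph node and at 1.35, 1.80 and 0.319 FPKM in spleen. Hspa1b stood at 7.96, 6.27 and 3.24 FPKM in lymph node and at 2.79, 1.59 and 0.694 FPKM in spleen. In both genes the tissues did not overlap and the Treg library was the lowest of its tissue. The sum of the pair, which a split of reads leaves unchanged, was 19.5, 12.9 and 7.86 FPKM in lymph node and 4.14, 3.39 and 1.01 FPKM in spleen. In the Treg library Hspa1a was 2.35-fold lower than in the un-injected library of lymph node and 2.26-fold lower in spleen, and Hspa1b 2.26-fold and 2.76-fold lower. The spleen values of Hspa1a are small, since 1 fragment per kilobase stood for an estimated 0.444 to 0.773 FPKM across the libraries.

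The other inducible members were steadier. Hsp90aa1, the inducible HSP90, stood at 111, 125 and 109 FPKM in lymph node and at 133, 151 and 113 FPKM in spleen. Dnajb1, the inducible HSP40, stood at 20.8, 24.5 and 21.0 FPKM in lymph node and at 17.6, 17.0 and 18.4 FPKM in spleen. Both stayed within 2-fold over all 6 libraries. Hsph1 (HSP105) stood at 20.3, 23.4 and 16.9 FPKM in lymph node and at 24.2, 28.6 and 13.7 FPKM in spleen, and was 2.04-fold higher in the naive than in the Treg library of spleen. Hspa4l stood between 3.56 and 5.90 FPKM. Hspb1 (HSP27) was listed at 0 in 3 libraries and was highest in un-injected lymph node, at 2.42 FPKM.

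The heat shock factors and Bag3, a co-chaperone that heat shock factor 1 induces, were read from the other lists of the pathway. Hsf1 stood between 12.7 and 17.9 FPKM in the 6 libraries. Bag3 stood at 16.7, 11.0 and 8.35 FPKM in lymph node and at 3.15, 5.01 and 2.59 FPKM in spleen, so that, like Hspa1a, all its spleen values lay below its lymph node values. Hsf2 stood at 40.5, 9.72 and 18.7 FPKM in lymph node and at 4.07, 5.36 and 3.69 FPKM in spleen. Of 19 co-chaperones of HSP70 and HSP90 past the filter, 4 were at least 2-fold higher (20.9% of all genes) and 1, Bag3, at least 2-fold lower (21.0% of all genes) in un-injected spleen than in un-injected lymph node, which is near the background for the higher and under it for the lower. The higher ones were Bag2, Stip1, Fkbp4 and Unc45a.

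Immediate early genes, which handling of tissue can also induce, were read for the same libraries. Over 13 such genes the median log2 ratio of Treg against un-injected came to 0.41 for lymph node, with 2 of them at least 2-fold higher (11.4% of all genes), and to 0.75 for spleen, with 4 (4.51% of all genes). Of the 13, 9 were above 0 and 4 below in lymph node, and 12 above and 1 below in spleen, while Hspa1a and Hspa1b were lower in both. Between the un-injected tissues Hspa1a and Hspa1b were lower in spleen, while the list was split, with 6 genes above 0 and 7 below. Its median for spleen against lymph node was -0.27. At 2-fold, 1 gene, Nr4a1, was higher (20.9% of all genes). Another 5 were lower (21.0% of all genes), namely Fos, Jun, Junb, Dusp1 and Zfp36. The part of handling in the HSP70 values was not tested.

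**Figure D2:**
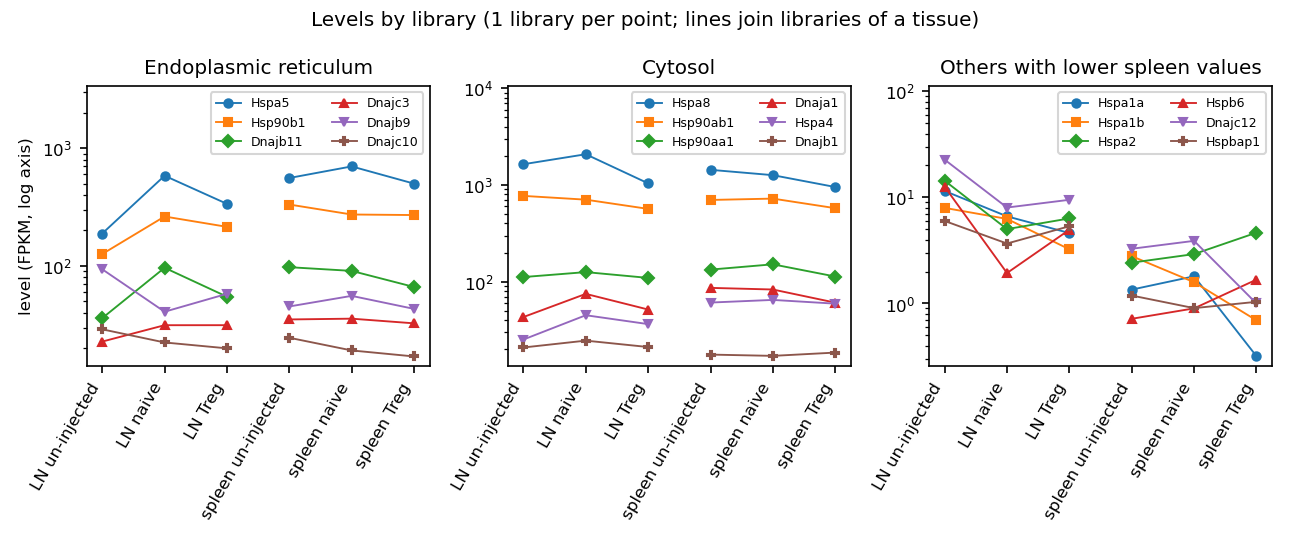
Levels of 18 members in each library (points, FPKM on a log axis), by group of genes in 3 panels, with lines that join the 3 libraries of a tissue. Hspa5, Hsp90b1 and Dnajb11 start low in un-injected lymph node, and the genes of the right panel sit lower in spleen.

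In the endoplasmic reticulum, Hspa5, the HSP70 known as BiP that holds the sensors of the unfolded protein response inactive (chromosome 2, 34771970 to 34777547), stood at 188, 583 and 337 FPKM in lymph node and at 558, 699.9 and 499.8 FPKM in spleen. The un-injected lymph node library was the lowest of the 6 and the naive library the highest of each tissue. Hsp90b1, the reticulum HSP90 known as GRP94 (chromosome 10, 86690209 to 86705509), stood at 126, 263 and 215 FPKM in lymph node and at 332, 273 and 270.4 FPKM in spleen. Dnajb11 (ERdj3), the DNAJ partner of BiP for unfolded clients, stood at 36.0, 96.5 and 54.8 FPKM in lymph node and at 97.6, 90.8 and 66.3 FPKM in spleen. For these 3 genes the un-injected library was the lowest and the naive library the highest of lymph node. In spleen, as deposited, Hsp90b1 and Dnajb11 were highest in the un-injected library. That library had the largest summed values of spleen (861260 FPKM, beside 655903 for naive and 657560 for Treg). Scaled by library totals, neither gene was highest in it.

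Within lymph node, Hspa5, Hsp90b1 and Dnajb11 were 3.09-fold, 2.08-fold and 2.65-fold higher in the naive than in the un-injected library, and 1.78-fold, 1.70-fold and 1.51-fold higher in the Treg library. Both ratios share the un-injected library. In spleen the naive values were 1.25-fold, 0.823-fold and 0.930-fold those of the un-injected library. The sum of the 3 genes was 351, 943 and 606 FPKM in lymph node and 988, 1064 and 837 FPKM in spleen.

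Not all reticulum members followed that order. Dnajb9 (ERdj4), a DNAJ protein that restrains the sensor IRE1, stood at 93.7, 40.8 and 58.0 FPKM in lymph node and at 45.3, 55.7 and 43.2 FPKM in spleen. Its un-injected lymph node library was the highest, and the naive library was 2.28-fold lower. Dnajc3 (p58IPK), a lumenal client-binding co-chaperone, stood at 22.8, 31.4 and 31.4 FPKM in lymph node and at 35.1, 35.7 and 32.6 FPKM in spleen. Dnajc10 (ERdj5), a disulfide reductase, stood at 29.0, 22.4 and 20.0 FPKM in lymph node and at 24.6, 19.2 and 17.0 FPKM in spleen. Hspa13 stood between 6.02 and 8.63 FPKM.

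The rest of the folding pathway of the reticulum was read from a list of 24 genes, of which 23 passed the filter. In lymph node 10 of the 23 were at least 2-fold higher (16.9% of all genes) and 0 lower (16.6%) in the naive than in the un-injected library, and their median log2 ratio was 0.94, beside -0.0041 over all genes. In spleen the same ratio had a median of -0.13, with 0 higher (4.5% of all genes) and 0 lower (6.01%). For Treg against un-injected the lymph node median was 0.62, with 6 higher (11.4% of all genes) and 1 lower (6.91%), and the spleen median -0.12, with 0 higher (4.51%) and 1 lower (5.87%). Between un-injected spleen and lymph node the median was 1.13, with 14 higher (20.9% of all genes) and 2 lower (21.0%). Over all genes the medians of these comparisons lay between -0.0361 and 0.0297. Scaling by library totals moved the median of all genes by 0.35 (naive) and 0.34 (Treg) against un-injected spleen. The values of this list are as deposited, so the directions of its spleen medians may depend on the scaling.

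Hyou1, the reticulum exchange factor of BiP, stood at 12.4, 56.0 and 41.3 FPKM in lymph node and at 70.1, 57.9 and 58.3 FPKM in spleen. Xbp1, the transcription factor activated by IRE1, stood at 24.0, 148 and 42.7 FPKM in lymph node and at 89.1, 87.9 and 74.0 FPKM in spleen. Its un-injected lymph node value was the lowest, as for Hspa5, and the values do not separate spliced from unspliced Xbp1. Herpud1, a degradation factor of the reticulum, stood at 381, 237 and 283 FPKM in lymph node and at 341, 388 and 352 FPKM in spleen, so its highest value was in the naive spleen library, and within lymph node in the un-injected one.

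The un-injected lymph node library also stood apart in its cell markers. All 4 genes of the list for migratory dendritic cells were in the table, and their summed level was 14578 FPKM there, 2445 and 5903 FPKM in the naive and Treg lymph node libraries and 1447 to 1700 FPKM in spleen. All 5 monocyte markers were present and summed to 199, 5900 and 775 FPKM in lymph node and to 2388, 632 and 885 FPKM in spleen. The 5 dendritic cell markers summed to 12258 FPKM in un-injected lymph node and to 24165 to 41504 FPKM in the other 5 libraries. Most of that sum was Cd74 and H2-Ab1 (9886 and 2100 FPKM in un-injected lymph node). These 2 genes and Itgax were lowest in that library. Zbtb46 was highest there (49.8 FPKM, 13.5 to 30.8 elsewhere), and Flt3 lay within the range of the others (183 FPKM, 56.6 to 221 elsewhere). Neutrophil markers summed to 815 FPKM in the un-injected spleen library and at most to 22.8 FPKM elsewhere, and erythroid markers to 552, 107 and 367 FPKM in spleen and at most to 37.7 FPKM in lymph node. T cell markers, of which 4 of 5 were in the table, summed at most to 5.32 FPKM. No marker that was in the table stood at 0 in all 6 libraries. The part of the cell makeup in the reticulum values was not tested.

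In mitochondria, Hspa9 (mortalin), the HSP70 of the import motor, stood at 26.9, 54.9 and 41.9 FPKM in lymph node and at 66.7, 69.8 and 73.1 FPKM in spleen. The tissues did not overlap, and the naive library of lymph node was 2.02-fold above the un-injected one. Hspd1 (HSP60) stood at 54.5, 63.1 and 42.9 FPKM in lymph node and at 73.2, 75.7 and 52.7 FPKM in spleen. Its partner Hspe1 (HSP10), whose exons overlap those of Hspd1 on the opposite strand of chromosome 1, stood at 170.4, 166 and 131 FPKM in lymph node and at 307, 241 and 197 FPKM in spleen. The Treg library was the lowest of each tissue in both genes. Dnaja3 (Tid1), the mitochondrial DNAJ partner of mortalin, stood between 6.02 and 9.95 FPKM.

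A further set of members was highest in the un-injected lymph node library. Hspb11, which encodes IFT25 of the intraflagellar transport machinery, stood at 58.2, 21.9 and 29.1 FPKM in lymph node and at 35.5, 15.3 and 22.4 FPKM in spleen. It was the only member at least 2-fold lower after naive T cells in both tissues, by 2.62-fold in lymph node and 2.28-fold in spleen, a pattern held by 1.32% of all genes, and 0 members were higher in both (1.21% of all genes). The naive library was the lowest of each tissue and the un-injected library the highest. Against the un-injected library the Treg library was 1.98-fold and 1.58-fold lower. Scaled by library totals, the spleen log2 ratio of Hspb11 after naive T cells was -0.81, short of 2-fold.

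Dnajc12, a co-chaperone of the aromatic amino acid hydroxylases, stood at 22.7, 8.02 and 9.49 FPKM in lymph node and at 3.28, 3.89 and 1.00 FPKM in spleen. With Hspa1a and Hspa1b it was 1 of 3 members at least 2-fold lower after Treg in both tissues, against 1.21% of all genes, and 0 members were higher in both (0.795% of all genes). Dnajb2 (HSJ1), a DNAJ protein best known from neurons, stood at 40.0, 7.45 and 21.8 FPKM in lymph node and at 14.5, 14.5 and 18.3 FPKM in spleen. Its naive lymph node library was the lowest of the 6, 5.09-fold below the un-injected one.

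Hspb6 (HSP20), a small heat shock protein best known from muscle, stood at 12.6, 1.94 and 4.95 FPKM in lymph node and at 0.717, 0.899 and 1.68 FPKM in spleen. Hspa2, an HSP70 best known from testis, stood at 14.4, 5.02 and 6.34 FPKM in lymph node and at 2.42, 2.92 and 4.65 FPKM in spleen. Dnajc5, the cysteine string protein of secretory vesicles, stood at 62.8, 33.8 and 38.6 FPKM in lymph node and at 20.0, 23.4 and 22.9 FPKM in spleen. For all 3 genes the un-injected lymph node library was the highest and no spleen value reached a lymph node value. The migratory dendritic cell markers given above were highest in that library too, and their part in these values was not tested.

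Over the 58 members, 7 were at least 2-fold higher in the naive than in the un-injected lymph node library (background 16.9%) and 8 at least 2-fold lower (background 16.6%). The higher ones were Hspa5, Hsp90b1, Dnajb11, Hspa9, Dnajc9, Dnajc17 and Dnajc25. The lower ones were Hspb6, Hspb11, Hspa2, Dnaja4, Dnajb2, Dnajb9, Dnajc12 and Dnajc22. In spleen 0 were higher (background 4.5%) and 1, Hspb11, was lower (background 6.01%). As shares, 12.1% and 13.8% of the members in lymph node were under those of all genes.

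After Treg, 1 member, Dnajc25, was at least 2-fold higher in lymph node (background 11.4%) and 5 were lower (background 6.91%), namely Hspa1a, Hspa1b, Hspa2, Hspb6 and Dnajc12. In spleen 0 were higher (background 4.51%) and 3 lower (background 5.87%), namely Hspa1a, Hspa1b and Dnajc12. Scaled by library totals instead, the lymph node split was 6 higher to 1 lower and the spleen split 7 to 3. As deposited, the members had a median log2 ratio of -0.18 (lymph node) and -0.21 (spleen). Under that scaling the lymph node log2 ratios of Hspa1a, Hspa1b and Dnajc12 were -0.98, -0.94 and -0.94, just short of 2-fold, and those of Hspa5 and Hsp90b1 were 1.13 and 1.06. The median of all genes moved by 0.27 and 0.34 with it, and the members' medians were 0.12 and 0.15.

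Naive against Treg gave 2 members higher (background 9.3%), Hspa8 and Dnajc17, and 3 lower (background 11.4%), Dnajb2, Dnajc22 and Hspb6, in lymph node. In spleen it gave 3 higher (background 4.12%), Hspa1a, Hsph1 and Dnajc12, and 0 lower (background 3.71%). With library totals the splits were 1 to 5 in lymph node and 3 to 1 in spleen. In both tissues 0 members were higher (1.39% of all genes) and 0 lower (0.906%) by 2-fold.

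**Figure D3:**
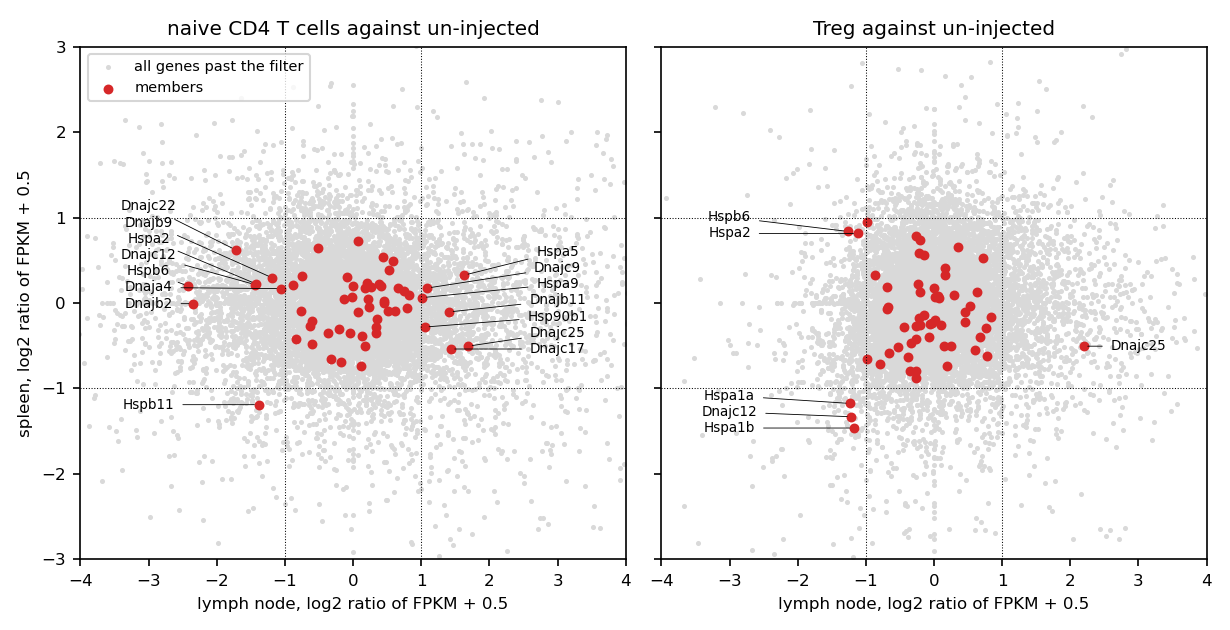
Each point is a gene, with the log2 ratio of FPKM + 0.5 in lymph node on the x axis and in spleen on the y axis, for naive against un-injected (left) and Treg against un-injected (right). Members are red and named where they reach 2-fold (dotted lines) in a tissue, all genes past the filter are grey, and grey points beyond the axes are not drawn. In the left panel only Hspb11 is past 2-fold in spleen, and in the right panel Hspa1a, Hspa1b and Dnajc12 are past it in both tissues.

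Between the tissues, 9 members were at least 2-fold higher (background 20.9%) and 13 lower (background 21.0%) in un-injected spleen than in un-injected lymph node. After naive T cells 0 were higher (background 8.94%) and 4 lower (background 12.2%), and after Treg 1, Dnajb5, was higher (background 8.37%) and 7 were lower (background 13.4%). With library totals the un-injected split was 6 higher and 16 lower. Dnajc1, Hspa1a, Hspa1b and Hspbap1 were at least 2-fold lower in spleen in all 3 states, against 4.04% of all genes, and 0 members were higher in all 3, against 2.56%.

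Dnajc1 (ERdj1), a membrane protein of the reticulum whose locus the file shares with Mllt10, stood at 19.8, 12.9 and 17.1 FPKM in lymph node and at 6.95, 4.86 and 7.62 FPKM in spleen. Hspbap1 stood at 6.00, 3.67 and 5.35 FPKM in lymph node and at 1.19, 0.904 and 1.04 FPKM in spleen. In both genes every spleen value was below every lymph node value.

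The 3 spleen values lay above the 3 lymph node values for 11 of the 58 members (background 16.4%) and below them for 11 (background 16.9%). The higher ones included Hspa4, Hspa9, Hspe1, Hsp90b1 and Dnajc3, and also Hspa14 and Dnajc2, whose proteins both work at the ribosome. Hspa14, summed over its 2 lines in the table and overlapped by Gm45902, stood at 28.7, 41.2 and 27.5 FPKM in lymph node and at 65.1, 61.1 and 55.0 FPKM in spleen. Dnajc2 stood at 20.7, 24.9 and 22.3 FPKM in lymph node and at 31.3, 35.6 and 26.2 FPKM in spleen. Dnajb5 stood at 4.47, 6.93 and 3.97 FPKM in lymph node and at 9.27, 13.2 and 13.9 FPKM in spleen.

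**Figure D4:**
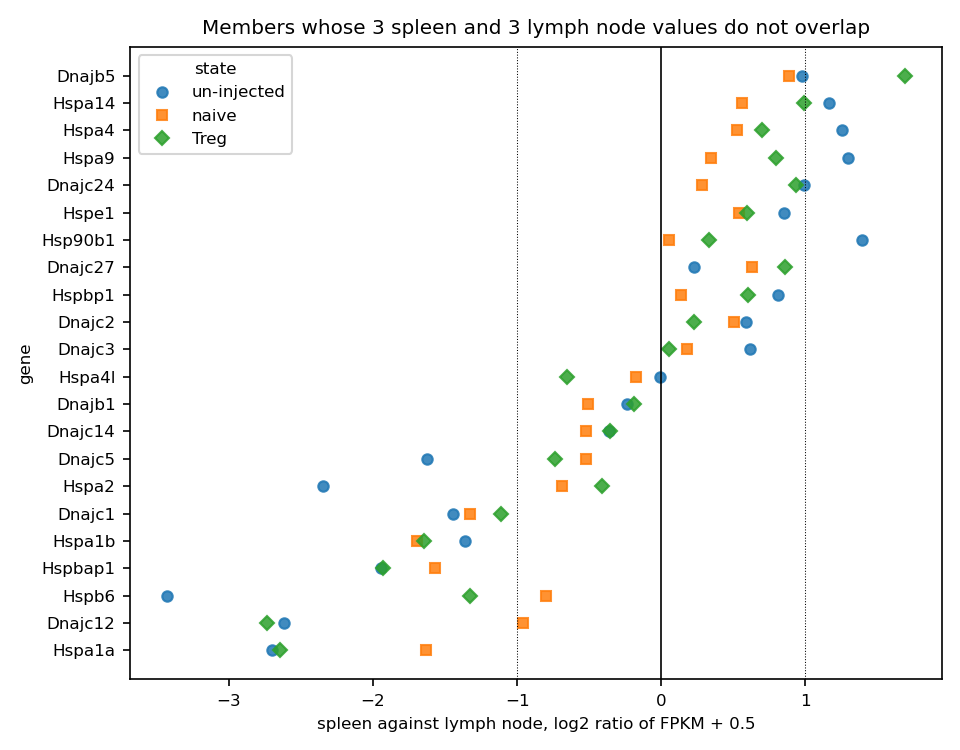
Log2 ratios of FPKM + 0.5, spleen against lymph node, in un-injected (circles), naive (squares) and Treg (diamonds) libraries, for the 22 members whose 3 spleen and 3 lymph node values do not overlap, with dotted lines at 2-fold. Dnajc1, Hspa1a, Hspa1b and Hspbap1 lie past 2-fold on the lower side in all 3 states.

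A model over all 6 libraries (limma, log2(FPKM + 1), additive in transfer and tissue, Benjamini-Hochberg adjustment over 10818 genes) has 2 residual degrees of freedom, so it measures how far tissues or states agree and not the spread between mice. By limma at an adjusted p of 0.05, 0 of 58 members were called for naive against un-injected, 0 for Treg against un-injected, 0 for naive against Treg and 0 for spleen against lymph node, where the backgrounds were 0.0%, 0.0%, 0.0% and 0.684%. At an unadjusted p under 0.05 the counts were 2, 5, 1 and 16 members, beside 7.26%, 4.7%, 3.42% and 25.3% of all genes.

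By limma, Hspa1a had the lowest adjusted p among the members for spleen against lymph node, with a difference of -1.98 ± 0.31 (SE) and an adjusted p of 0.0604. Hspbap1 differed by -1.54 ± 0.28 with a limma adjusted p of 0.0696. For naive against un-injected, Hspb11 differed by -1.27 ± 0.28 and Hspa5 by 0.98 ± 0.37, both with a limma adjusted p of 0.661. For Treg against un-injected, Hspa1b differed by -1.12 ± 0.32 with a limma adjusted p of 0.938. Without the naive library of either tissue, the lone naive library has its own term in the limma fit. It then adds nothing to spleen against lymph node. Both fits rest on the same un-injected and Treg libraries, so they do not back each other, and their calls are not read here.

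In the authors' deposited tables, each comparing 1 library with another and so those libraries and not the conditions, no member was marked at 2-fold with a p-value of 0.01 or less. Of the 73 lines of members, 46 to 52 had a test, by comparison. Within spleen, Hspa1a, Hspa1b, Hspa2, Hspb6, Hspbap1 and Dnajc12 had no test there, so they could not be marked. The lowest p-value of a member in the authors' deposited table of naive against un-injected lymph node was 0.0268, for Dnajb2, with a q-value of 0.999.

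Most of the remaining members past the filter differed less or were low. Dnajb6, which holds back protein aggregation, stood at 80.0, 79.3 and 66.6 FPKM in lymph node and at 91.4, 95.8 and 75.8 FPKM in spleen. Dnajc7, a DNAJ protein that binds HSP70 and HSP90, lay between 66.4 and 94.3 FPKM, and Dnajc8, which associates with the splicing machinery, between 106 and 168 FPKM. Dnaja2, a cytosolic partner of HSC70, lay between 44.3 and 82.2 FPKM, and Dnajc19, of the mitochondrial import motor, between 22.2 and 44.0 FPKM. Dnajc13, an endosomal DNAJ protein, lay between 8.78 and 18.0 FPKM. All 6 genes were among the 27 members within 2-fold, Dnajc13 at the edge with a ratio of 1.999.

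The reticulum membrane proteins Dnajb12 and Dnajb14 lay between 12.6 and 19.7 FPKM and between 6.86 and 12.0 FPKM. Dnajc4, Dnajc11, Dnajc14, Dnajc16, Dnajc21, Dnajc30 and Hspbp1 lay between 3.52 and 23.2 FPKM. Dnajb4 differed more, at 15.7, 10.8 and 7.64 FPKM in lymph node and at 6.02, 9.66 and 12.1 FPKM in spleen. It was 2.48-fold lower in un-injected spleen than in un-injected lymph node. Against the un-injected library its log2 ratio after Treg was -0.99 in lymph node and 0.95 in spleen, each short of 2-fold. Dnajc18, Dnajc24, Dnajc27, Dnajb13, Dnaja4 and Dnajc22 did not pass 10 FPKM in any library. Dnajc22 stood at 3.21, 0.623 and 2.68 FPKM in lymph node and at 0.290, 0.717 and 0.689 FPKM in spleen.

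The other 14 members did not pass the filter and have no ratio. They were Dnajb3, Dnajb7, Dnajb8, Dnajc6, Dnajc28, Hspa1l, Hspa12a, Hspa12b, Hspb1, Hspb2, Hspb3, Hspb7, Hspb8 and Hspb9. Dnajb7 and Dnajc6 (auxilin), which uncoats clathrin vesicles in neurons, were listed at 0 in all 6 libraries. The highest were Dnajc28, with 2.43 FPKM, and Hspb1, both in the un-injected lymph node library.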

How the data were processed

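RNA of dendritic cells was sequenced in 6 libraries, 1 for each group. The authors deposited 1 table whose header names no unit. Its values are taken as FPKM from their form, as deposited by the authors. Per the file headers, the authors also deposited 6 tables of pairwise comparisons in which loci have p-values and q-values. Per the submitters' processing notes, the tools were RSEM and edgeR 3.16.5 and the builds mm10 and GRCm38.p4. Their roles are not stated there. The sources used here give neither counts nor depth, so no counting interval was derived. From the most frequent low value times transcript length, in genes with 1 transcript, 1 fragment per kilobase was estimated at 0.444 to 0.773 FPKM.

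The 38 symbols on several lines of the 21958-line table were summed (Hspa14 is the member among them). Genes at 1 FPKM or more in at least 2 libraries were kept. Within a tissue the log2 ratio of FPKM + 0.5 was taken with no test, and folds are 2 to the power of that value, which understates low genes. Across libraries the log2(FPKM + 1) values were fitted with limma 3.58.1 in R 4.3.3, trend included, tested on simulated data. Annotation came from GENCODE M21 by symbol and locus. Exons of 9 members overlap another gene on the same strand and of 25 on the opposite strand, so their reads may be shared.

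The members, lists and tests were chosen with earlier results of these data known. Values in all libraries were given by rule for the cytosolic, reticulum and mitochondrial groups and for members past 2-fold the same way in both tissues or in all 3 states. Exceptions were Hspa4l, Hspa13 and Dnaja3, given as a range, and Hspb1, given by its highest value. Dnajb2, Dnajb4, Dnajb5, Dnajb6, Dnajc2, Dnajc5, Dnajc22, Hspa2, Hspa14 and Hspb6 were chosen after their values were seen. So were the members of the closing section and the list genes named. Alternatives were other pseudocounts, filters and scalings, a model with no other term, and leaving out each library.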

Additional observations from a re-analysis of the deposited data

Results flagged for a closer look

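Some members differed from the un-injected library in opposite directions in lymph node and spleen. With 1 library per group the difference between the tissues was not tested. Values are log2 ratios of FPKM + 0.5.

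Dnajc25, a membrane-bound DNAJ protein, stood at 0.647, 3.20 and 4.75 FPKM in lymph node and at 5.93, 4.03 and 4.03 FPKM in spleen. After naive T cells its ratio was 1.69 in lymph node and -0.51 in spleen, 2.19 apart. After Treg it was 2.19 in lymph node and -0.51 in spleen, 2.70 apart. Both rest on the low un-injected lymph node value. Exons of Dnajc25 overlap Gm20503 on the same strand, so reads may be shared. Dnajc17, a DNAJ protein of the spliceosome, stood at 6.44, 18.2 and 7.46 FPKM in lymph node and at 17.0, 11.5 and 9.96 FPKM in spleen. After naive T cells the ratio of Dnajc17 was 1.43 in lymph node and -0.54 in spleen, 1.97 apart. Its exons overlap Zfyve19 on the opposite strand, so reads may be shared here too.

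After Treg the lymph node ratio of Hspa2 was -1.12 and its spleen ratio 0.82, a difference of -1.94. Hspb6 had -1.26 and 0.84, a difference of -2.10, and its spleen values were under 2 FPKM. Exons of Hspb6 overlap Gm38670 on the same strand and Lin37 and Proser3 on the opposite strand, so reads may be shared.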

How the results depend on the processing

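No paired analysis was possible because, with 1 library per group, no replicate numbers pair libraries. The limma model itself compares states within tissue and tissues within state. Over 22 counts of members, 128 of 156 alternatives stayed within 1.5 times the count given, and 28 moved. Scaling by library totals gave, for naive against un-injected spleen, 2 higher and 0 lower. It gave 6 higher and 1 lower for Treg against un-injected lymph node, 7 higher for Treg against un-injected spleen, 1 higher and 5 lower for naive against Treg in lymph node, 1 lower for naive against Treg in spleen, and 7 lower for spleen against lymph node after naive T cells. A pseudocount of 2 gave 4 higher for naive and 3 lower for Treg against un-injected lymph node, 0 lower for Treg against un-injected spleen, 1 higher and 1 lower for naive against Treg in lymph node, 0 higher for naive against Treg in spleen, and 3 lower for spleen against lymph node after Treg. A pseudocount of 0.1 gave 1 higher for naive and 3 higher for Treg against un-injected spleen, 1 lower for naive against Treg in spleen, and 2 higher for spleen against lymph node after Treg. A filter of 5 FPKM gave 5 lower for naive and 0 higher for Treg against un-injected lymph node, and 1 lower for naive against Treg in lymph node. No filter gave 1 higher for Treg against un-injected spleen and 1 lower for naive against Treg in spleen. The limma count for spleen against lymph node was 1, Hspbap1, with no other term in the model (311 of 10818 genes called). It also moved in the fits with a naive library left out. Such fits leave 1 library in the naive state, so their counts are not given. The causes were not tested. Of 450 values of named genes, 439 stayed on the same side of 2-fold, 7 fell under it and 4 passed it. Among those past 2-fold as deposited, 0 reversed. Direction was not compared for values under 2-fold, which can change sign with the scaling. Depth limits the low values, such as Hspa1a in spleen.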

Other observations

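The cytosolic chaperonin TRiC, which folds actin and tubulin, was read as a further folding system. Of its 8 listed genes 7 were in the table and past the filter, and all 7 were higher in un-injected spleen than in un-injected lymph node, with a median log2 ratio of 0.67 and 2, Cct3 and Cct8, at least 2-fold higher (20.9% of all genes). Against the un-injected spleen library, all 7 were lower in the Treg library, with a median of -0.42, and 6 of 7 in the naive library, with a median of -0.22. In either, 0 were past 2-fold. Scaling by library totals moved the median of all genes by -0.33 between the un-injected tissues, and by 0.34 (Treg) and 0.35 (naive) against un-injected spleen. The TRiC values are as deposited and were not rescaled, so their directions may depend on the scaling. The 7 genes of the mitochondrial folding list went both ways. Between the un-injected tissues 4 were above 0 and 3 below, with a median of 0.44, and for Treg against un-injected spleen 3 were above and 4 below, with a median of -0.39.

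Dnajc15 (MCJ), a mitochondrial DNAJ protein that restrains respiratory complex I in mice, stood at 119, 66.4 and 68.6 FPKM in lymph node and at 136, 101 and 82.6 FPKM in spleen. It was highest in the un-injected library of each tissue. Dnajc9, a histone co-chaperone, stood at 6.66, 14.7 and 11.7 FPKM in lymph node and at 22.9, 25.9 and 14.7 FPKM in spleen, lowest in the un-injected lymph node library. Both were chosen after their values were seen.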
